A study of Mus musculus with 9 samples.

Results

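The 40 genes described here are the cell cycle genes of the mouse kidney atlas, chosen by name from the 32427 genes listed in the count tables: 23 genes used in G2 and mitosis (here the mitotic genes), 12 used in DNA synthesis (S phase), the 3 G1 cyclins Ccnd1, Ccne1 and Ccne2, and the chromatin and microtubule genes Hmgb2 and Stmn1. Single-cell RNA sequencing had been carried out on kidneys of 9 male C57BL/6 mice in 3 groups of 3, and reads were deposited as counts of unique molecular identifiers (UMIs, 1 per captured RNA molecule) for each gene and cell barcode. The mice were 6 weeks old at the start and kidneys were taken at week 8. Control mice received saline intraperitoneally, AKI-CKD mice received 4 weekly intraperitoneal injections of cisplatin at 8 mg/kg, a model in which repeated tubule injury passes into chronic kidney disease, and AKI-CKD + EGT mice received the same cisplatin with the antioxidant ergothioneine (EGT) at 0.5 mg/mL in the drinking water. EGT was begun 3 days before cisplatin and was given until the end of the study. No group had EGT without cisplatin, so the EGT comparison is AKI-CKD + EGT against AKI-CKD, and it shares the 3 AKI-CKD mice with the comparison of AKI-CKD against Control. The comparisons ask whether the RNA of the division programme differed at that late time, after the injections had ended, and whether S phase and mitotic genes moved together.

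A cell that enters the cycle first accumulates D cyclins, whose kinases inactivate the retinoblastoma proteins and free E2F factors to switch on the DNA synthesis genes. The mitotic genes follow later, when the DREAM repressor complex is exchanged for an activator complex with B-Myb and FoxM1 at promoters that carry a CHR element, often beside CCAAT boxes bound by NF-Y. Tubule cells of the adult kidney rarely divide, re-enter the cycle after injury to replace lost neighbours, and can be held at a checkpoint by the p53 target Cdkn1a (p21).

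The promoters of the S phase and the mitotic genes held different words. Windows from 250 bases before to 50 bases after the transcription start (RefSeq, GRCm38.p6) were at hand for 31 of the 40 genes, 32 windows in all because Mcm7 has 2 starts. The CHR core TTTGAA or its complement TTCAAA stood in 14 of 19 mitotic windows (73.7%), in 1 of 11 S phase windows (Mcm2), and in 17.9% of all 32851 mouse promoters. All 14 of those mitotic windows also held a CCAAT box (CCAAT or ATTGG), a pair found in 6.95% of all promoters. The E2F words TTTGGCGC, TTTCGCGC, TTTCCCGC and TTTGCCGC, read on both strands, stood in 4 of 11 S phase windows (36.4%), all of them helicase genes (Mcm3, Mcm5, Mcm6 and Mcm7), in 1 of 19 mitotic windows (Cdk1) and in 2.26% of all promoters. A CCAAT box alone did not set the lists apart, with 89.5% of mitotic and 81.8% of S phase windows against 37.4% of all. The following windows, each 300 bases and written 5′ to 3′ on the gene's strand, were picked with the matches known, as a pair from each list. Capitals mark the E2F words in Mcm6 and Mcm5, which overlap each other where a run of capitals is longer than 8 bases, and the CHR and CCAAT words in Top2a and Cdk1. A match is a run of letters and not a measured binding site.
Mcm6, chr1:128359656-128359955, minus strand: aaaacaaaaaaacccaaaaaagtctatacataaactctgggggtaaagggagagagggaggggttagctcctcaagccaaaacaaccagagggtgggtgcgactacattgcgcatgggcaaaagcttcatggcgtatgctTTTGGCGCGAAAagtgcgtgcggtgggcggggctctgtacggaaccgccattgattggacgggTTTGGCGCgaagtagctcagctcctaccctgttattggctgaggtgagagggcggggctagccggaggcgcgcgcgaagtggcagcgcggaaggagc
Mcm5, chr8:75109259-75109558, plus strand: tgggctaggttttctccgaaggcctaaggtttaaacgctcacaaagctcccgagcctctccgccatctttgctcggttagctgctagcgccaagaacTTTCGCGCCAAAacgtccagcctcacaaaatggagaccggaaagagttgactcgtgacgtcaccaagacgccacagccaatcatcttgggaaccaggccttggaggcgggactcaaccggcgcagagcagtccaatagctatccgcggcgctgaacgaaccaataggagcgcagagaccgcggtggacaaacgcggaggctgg
Top2a, chr11:99024140-99024439, minus strand: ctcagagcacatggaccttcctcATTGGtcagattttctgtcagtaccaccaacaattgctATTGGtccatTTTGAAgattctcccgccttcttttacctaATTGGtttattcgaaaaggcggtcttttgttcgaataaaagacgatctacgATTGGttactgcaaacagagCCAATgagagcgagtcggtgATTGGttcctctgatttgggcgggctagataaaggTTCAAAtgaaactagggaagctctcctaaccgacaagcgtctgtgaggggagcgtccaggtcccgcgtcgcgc
Cdk1, chr10:69352863-69353162, minus strand: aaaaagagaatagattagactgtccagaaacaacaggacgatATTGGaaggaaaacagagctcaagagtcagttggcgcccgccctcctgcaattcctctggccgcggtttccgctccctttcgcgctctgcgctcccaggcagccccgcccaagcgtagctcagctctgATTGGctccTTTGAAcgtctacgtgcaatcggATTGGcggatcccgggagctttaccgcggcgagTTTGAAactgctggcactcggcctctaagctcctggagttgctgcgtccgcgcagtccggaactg

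Of 216680 barcodes, 196925 cells were kept, those with 1000 UMIs or more, 500 genes or more and no more than 15% of mitochondrial UMIs, 17196 to 27463 per mouse, with a median of 2714 UMIs per cell. The mean mitochondrial share of kept cells ran from 2.00% to 7.88% across mice, highest in AKI-CKD + EGT 3. Cell types were rebuilt by clustering without the cell cycle genes and named from marker lists. Proximal tubule (PT) cells made up 82.2% of kept cells and 85.0% of their UMIs, but only 55.6% of cells in AKI-CKD + EGT 3 against 77.4% to 90.5% in the other mice. That library held more loop of Henle (LOH, 11.1%) and distal convoluted tubule (DCT, 16.6%) cells than any other.

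Most cell cycle RNA in the kidney was in PT cells, which were also most of the cells, and among cell types their level was near the low end. PT cells held 78.2% of the UMIs of the mitotic genes and 81.5% of those of the S phase genes. In CPM, the usual scaling of counts to a common total, here that of a cell type (mean ± SD over 9 mice), the mitotic genes summed to 27.4 ± 7.3 in PT and 22.7 ± 9.9 in LOH, 43.3 ± 40.1 in DCT, 42.2 ± 32.0 in macrophages, 95.8 ± 77.9 in T cells, and 15.9 ± 7.4, the lowest of the named types, in intercalated cells. Stromal cells were the highest of the named types at 106 ± 42 CPM, of which Cenpa alone made up 82.5 ± 34.8. Podocytes, which have left the cycle, stood at 105 ± 106 CPM on 820 cells, a spread between mice as large as the level. The upper part of this order is not resolved. The S phase genes summed to 68.3 ± 6.6 CPM in PT, 73.3 ± 9.6 in LOH, 107 ± 15 in endothelial cells and 175 ± 65 in T cells, and PT and LOH did not differ beyond their spread.

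Single members followed different cell types. Ccnd1, cyclin D1, was highest in principal cells, LOH and DCT, at 340 ± 67, 320 ± 60 and 290 ± 46 CPM. PT cells, at 201 ± 50 CPM, stood below stromal cells (250 ± 64), endothelial cells (228 ± 37) and macrophages (221 ± 37), all within the spread of their neighbours in this order. T cells at 139 ± 56 and intercalated cells at 127 ± 48 were lowest. Hmgb2, a chromatin protein of dividing and immune cells, was highest among named types in T cells at 349 ± 111 CPM and stood at 49.8 ± 13.6 in PT. Pcna, the sliding clamp of DNA polymerase, was at 45.6 ± 17.2 CPM in T cells and 9.91 ± 1.24 in PT, while Mcm6, a subunit of the replicative helicase, was at 22.3 ± 10.9 and 6.29 ± 0.88. Stmn1, which destabilises microtubules, was at 62.8 ± 10.6 CPM in PT and 26.3 ± 10.4 in intercalated cells. Among mitotic members, the share of UMIs that came from PT was highest for Nusap1 at 87.8% and lowest for the centromeric histone Cenpa at 40.6% and the cytokinesis motor Kif23 at 45.1%. Among S phase genes it ran from 57.0% for Mcm3 to 88.9% for Tk1.

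Counts were then summed per mouse and cell type and fitted with edgeR's quasi-likelihood test, and a gene was called at a Benjamini-Hochberg adjusted p under 0.05 over all genes fitted. No member was called in any of the 7 populations fitted or in either comparison. Over all kept cells, where all 40 members passed the filter on low counts, 0 of 40 were called in AKI-CKD against Control (0.0199% of all 20144 genes were) and 0 of 40 in the EGT comparison (0.00496%). At an unadjusted p under 0.05 the count was also 0 of 40 in both, while 8.02% and 12.7% of all genes passed that mark. In summed cells, fewer cells of a type and less RNA per cell cannot be told apart. In PT, 38 members passed the filter (Bub1 and Ttk, with 75 and 69 UMIs over all cells, did not), and 0 of 38 were called in either comparison, against 0.0389% of 17975 genes for AKI-CKD against Control and 0% for the EGT comparison. DESeq2 also called 0. At an unadjusted p under 0.05 there was 1 of 38 in each PT comparison, Tyms and Mcm3, against 10.6% and 14.8% of all genes.

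In PT, 11 of 12 S phase genes were higher in AKI-CKD on average and 1 lower, with a median log2 difference of 0.29 against -0.01 over all genes. Tyms, thymidylate synthase, the enzyme that makes dTMP for DNA, was measured in PT at 14.1, 15.9 and 14.1 CPM in Control mice 1 to 3, at 18.8, 22.2 and 19.5 in AKI-CKD kidneys and at 22.2, 14.8 and 11.6 in AKI-CKD + EGT mice (library sizes scaled by the trimmed mean of M values, TMM, here and for all values by mouse). The 3 AKI-CKD mice were all above the 3 Control mice, and the EGT mice spanned both. The difference was 0.46 ± 0.20 (log2, SE; edgeR adjusted p = 0.46) for AKI-CKD against Control and -0.32 ± 0.20 (adjusted p = 0.47) for the EGT comparison.

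Values follow for 3 helicase subunits, those whose AKI-CKD mice were all above the Control mice in PT. Mcm6 was at 5.74, 5.46 and 5.51 CPM in Control PT, 5.86, 6.81 and 8.02 in AKI-CKD kidneys and 7.58, 5.74 and 5.94 in AKI-CKD + EGT. Mcm2 was at 5.06, 5.32 and 4.41, then 5.43, 6.23 and 6.63, then 6.74, 6.93 and 4.93 CPM. Mcm4 was at 1.24, 1.20 and 1.22, then 1.43, 1.42 and 1.5, then 1.19, 1.04 and 0.937 CPM. For these 3 and Tyms, AKI-CKD mice were all above Control mice, 4 of 38 members (10.5%), where 11.2% of all PT genes did the same and 8.91% were all below. The count over all members was thus close to that of any gene. By list it was 4 of 12 S phase genes and 0 of 21 mitotic genes. Genes of a list are counted in the same cells and mice, so this split is a description with no test. Over all kept cells the 4 were Mcm2, Mcm4, Mcm5 and Tyms, again S phase genes, of 40 members, beside 8.71% of all genes above and 7.09% below. The fitted differences were 0.31 ± 0.16 for Mcm6 (edgeR adjusted p = 0.498), 0.31 ± 0.16 for Mcm2 (adjusted p = 0.511) and 0.24 ± 0.21 for Mcm4 (adjusted p = 0.661).

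**Figure D1:**
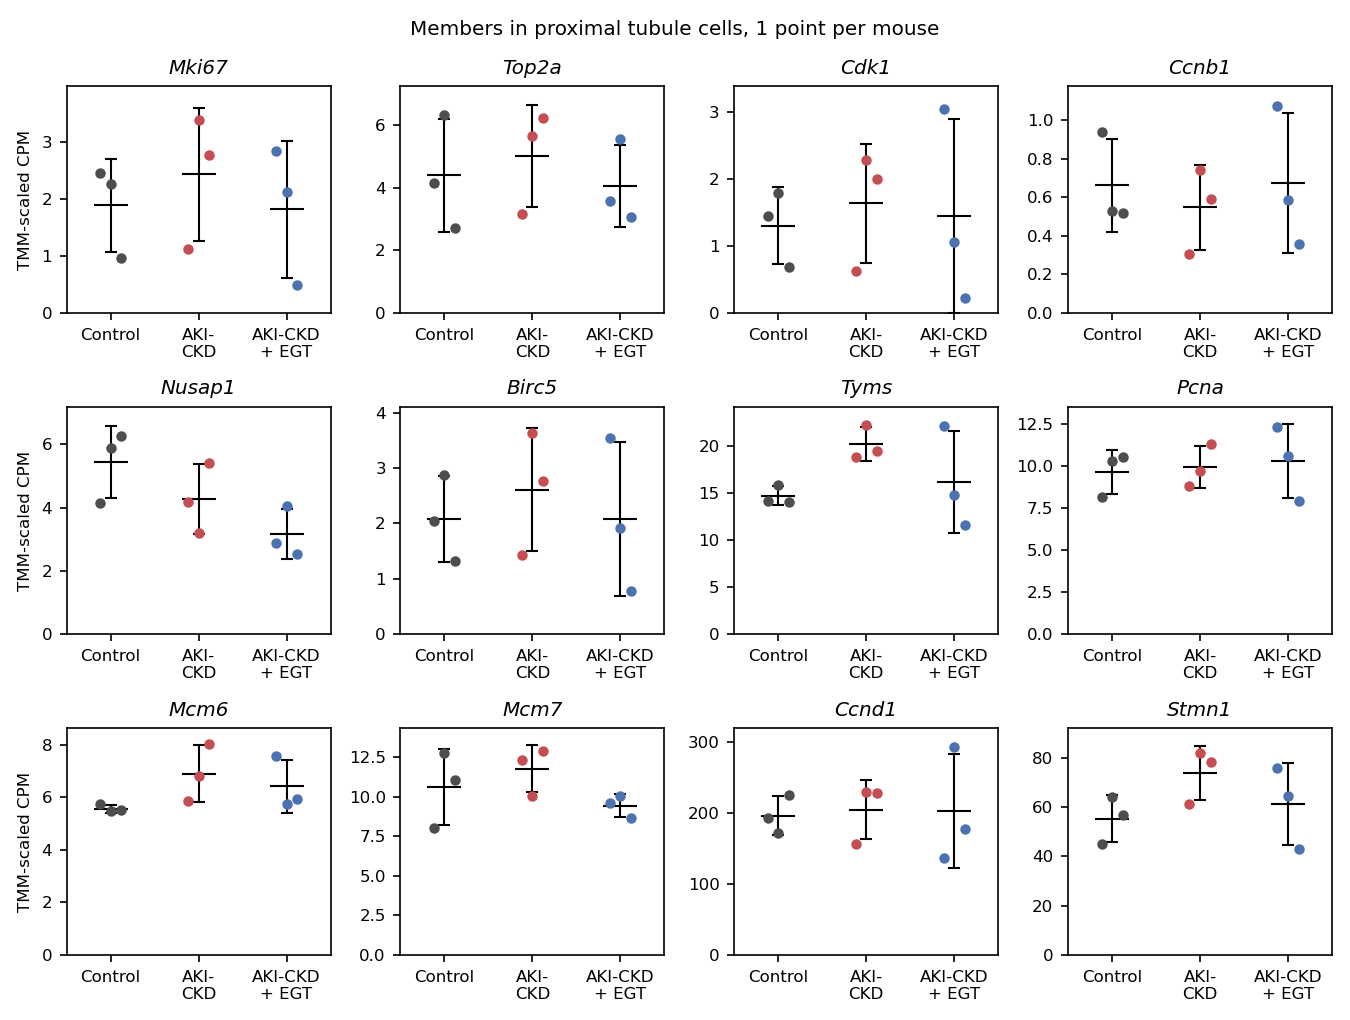
Expression of 12 cell cycle genes in PT cells, in TMM-scaled CPM, with 1 point per mouse and the mean ± SD of the 3 mice of each group. The groups overlap in most panels, while AKI-CKD mice lie above Control mice for Tyms (18.8 to 22.2 against 14.1 to 15.9 CPM) and by a narrow margin for Mcm6 (5.86 to 8.02 against 5.46 to 5.74 CPM).

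With EGT the S phase genes lay on the other side of AKI-CKD, with 9 of 12 lower and 3 higher in PT and a median of -0.30, against -0.01 over all genes. The median was -0.11 without AKI-CKD + EGT 3 and -0.15 without AKI-CKD 2, with 9 of 12 lower in both cases. On library totals without TMM 8 of 12 were lower (median -0.08, against 0.21 over all genes), and the summed S phase level moved from -0.17 to 0.05 on the log2 scale, by the 0.22 that all PT genes moved. Mcm3 was at 0.540, 0.890 and 0.774 CPM in AKI-CKD kidneys and 0.494, 0.340 and 0.379 in AKI-CKD + EGT, so that the EGT mice were all below, as for Mcm4. These 2 of 38 members (10.8% of all PT genes were all below and 10% all above) differed by -0.85 ± 0.33 (edgeR adjusted p = 0.287) and -0.45 ± 0.21 (adjusted p = 0.342). Over all kept cells no member had EGT mice all on one side of AKI-CKD mice, where 9.73% of all genes were all below and 8.54% all above. Mcm7 was at 12.3, 10.1 and 12.9 CPM in AKI-CKD kidneys and 9.57, 10.1 and 8.62 in AKI-CKD + EGT, with Control mice from 8.03 to 12.8. Pcna was flat, at 8.15, 10.3 and 10.5 CPM in Control, 8.80, 9.68 and 11.3 in AKI-CKD kidneys and 12.3, 10.6 and 7.92 in AKI-CKD + EGT, with differences of 0.04 ± 0.18 and 0.05 ± 0.18.

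The mitotic genes had no common direction in AKI-CKD against Control. Over all kept cells 14 of 23 were higher and 9 lower (median 0.14), and the number higher was 9 without AKI-CKD 2 and also 9 without Control 3. Mki67, the proliferation antigen, was at 2.46, 2.26 and 0.958 CPM in Control PT, 1.13, 3.4 and 2.78 in AKI-CKD kidneys and 2.84, 2.12 and 0.499 in AKI-CKD + EGT. Each group had a mouse near or below 1 CPM and another above 2, so the spread within groups was larger than any step between them. The differences were 0.36 ± 0.57 for AKI-CKD against Control (edgeR adjusted p = 0.827) and -0.41 ± 0.57 for EGT against AKI-CKD (adjusted p = 0.77).

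The kinase Cdk1 and its partner Ccnb1, which together drive entry into mitosis, varied widely between the mice of a group in PT. Cdk1 was at 1.45, 1.80 and 0.681 CPM in Control, 0.630, 2.29 and 2.01 in AKI-CKD kidneys and 3.05, 1.07 and 0.219 in AKI-CKD + EGT. Ccnb1 was at 0.941, 0.527 and 0.517, then 0.309, 0.744 and 0.590, then 1.07, 0.588 and 0.359 CPM. AKI-CKD 1 was the lowest of its group and AKI-CKD + EGT 1 the highest of its own for both genes, and in PT no fitted difference of the pair passed 0.32 in size (SE 0.46 to 0.73).

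The mitotic genes with the most UMIs also overlapped between the groups in PT. Top2a, the topoisomerase that untangles replicated DNA, was at 4.16, 6.30 and 2.70 CPM in Control, 3.16, 5.63 and 6.22 in AKI-CKD kidneys and 3.56, 5.54 and 3.07 in AKI-CKD + EGT, with differences of 0.19 ± 0.34 and -0.30 ± 0.34. Nusap1, a spindle microtubule protein, was at 4.16, 5.89 and 6.27, then 4.18, 3.20 and 5.42, then 2.88, 4.04 and 2.53 CPM, with differences of -0.35 ± 0.24 and -0.44 ± 0.25 (edgeR adjusted p = 0.599 and 0.424). Birc5, survivin of the chromosomal passenger complex, was at 2.05, 2.87 and 1.31, then 1.43, 3.63 and 2.77, then 3.54, 1.92 and 0.778 CPM.

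Among members with at least 100 UMIs, the most positive AKI-CKD difference in PT was that of Plk1, the polo-like kinase, at 1.11, 0.552 and 0.492 CPM in Control and 0.450, 2.56 and 1.1 in AKI-CKD (0.92 ± 0.58). It rested on AKI-CKD 2, since AKI-CKD 1 was below all Control mice. Ccna2, cyclin A2, was next at 0.63 ± 0.67, with 0.257, 1.18 and 0.879 CPM in AKI-CKD against 0.562, 0.590 and 0.328 in Control. The most negative was Cenpf, a kinetochore protein, at 2.96, 1.41 and 1.46 CPM in Control and 0.489, 1.51 and 1.56 in AKI-CKD (-0.72 ± 0.44), a difference set by 1 high Control mouse and 1 low AKI-CKD mouse. Kif11, the motor that separates spindle poles, followed at -0.54 ± 0.40 with 1.57, 1.18 and 0.479 CPM against 0.772, 0.853 and 0.604. Over all kept cells Bub1b, a spindle checkpoint kinase, took its place at -0.62 ± 0.49, with 0.795, 0.517 and 0.265 CPM in Control and 0.221, 0.418 and 0.386 in AKI-CKD.

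In the EGT comparison over all kept cells, the aurora kinases lay lowest. Aurka was at 0.326, 1.18 and 0.748 CPM in AKI-CKD kidneys and 0.555, 0.444 and 0.297 in AKI-CKD + EGT (-0.79 ± 0.45), and Aurkb at 0.198, 0.605 and 0.312 and 0.322, 0.185 and 0.181 CPM (-0.69 ± 0.50). Kif23 and Cenpa lay highest, Kif23 at 0.641, 1.11 and 0.810 against 1.02, 1.42 and 1.01 CPM (0.43 ± 0.35) and Cenpa at 0.489, 1.82 and 0.698 against 1.24, 1.1 and 1.17 CPM (0.23 ± 0.44). All 4 overlapped between the groups. The 2 highest were the mitotic members with the smallest share of their UMIs in PT. Kif23 was also among the largest rises with EGT within PT alone, and the part of cell composition was not tested.

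**Figure D2:**
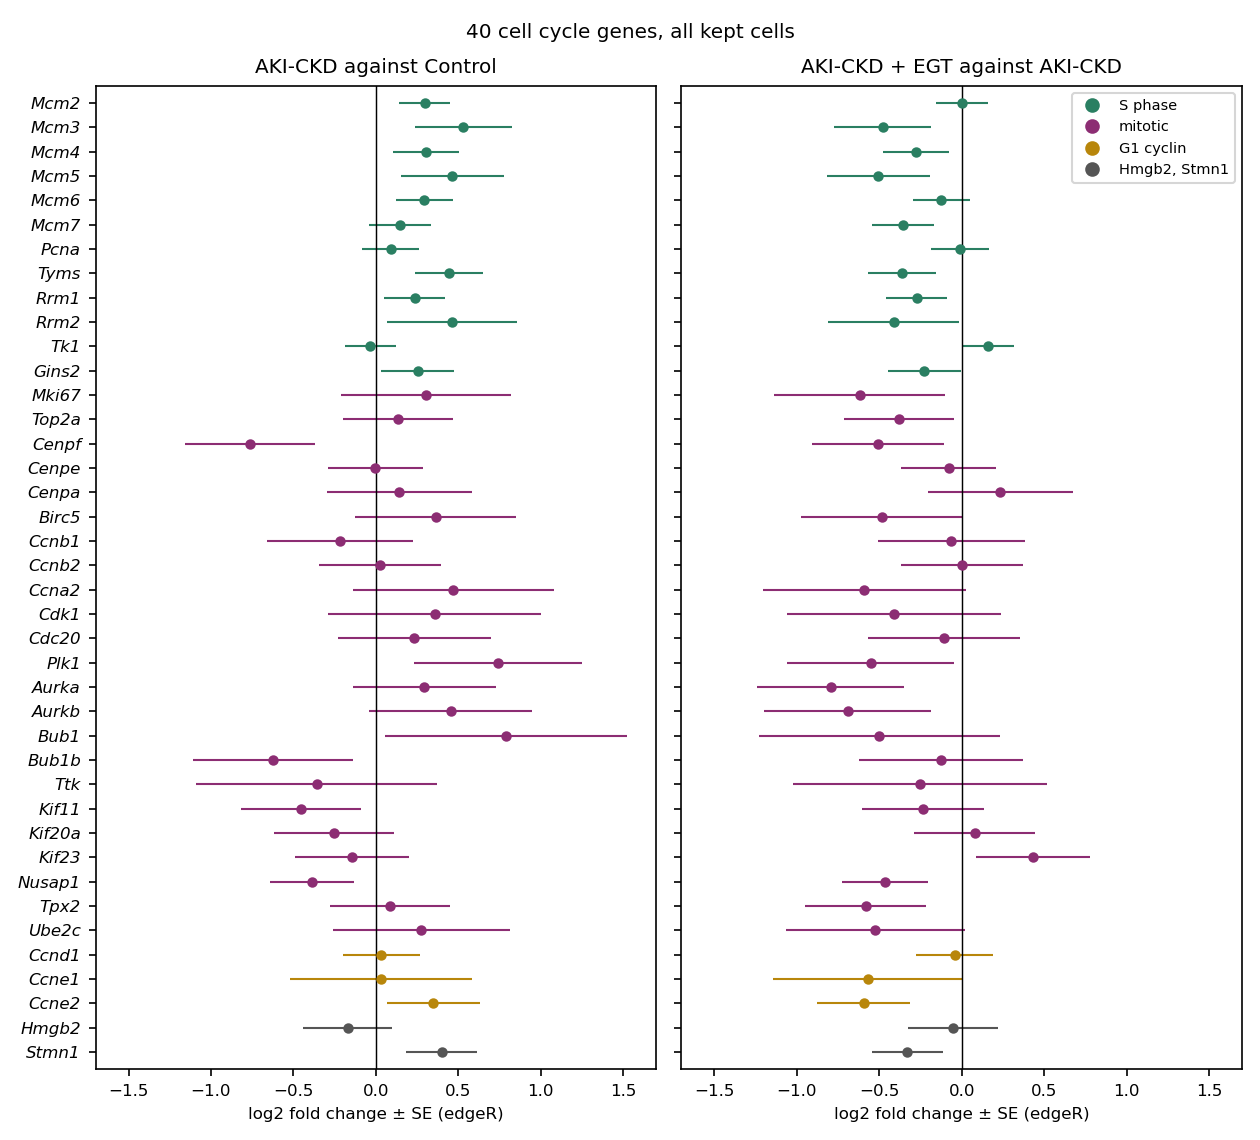
Log2 difference ± SE of each of the 40 genes in counts summed over all kept cells, for AKI-CKD against Control and for AKI-CKD + EGT against AKI-CKD, grouped as mitotic, S phase, G1 cyclins, and Hmgb2 with Stmn1. Points lie mostly above 0 for the first comparison (29 of 40) and below 0 for the second (35 of 40), and 0 of 40 passed the adjusted threshold in either.

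Over the whole list, 29 of 40 members were higher and 11 lower over all kept cells in AKI-CKD against Control (median 0.23, against 0.00 over all genes), and 35 of 40 were lower in the EGT comparison (median -0.34, against -0.01). Both comparisons hold the same 3 AKI-CKD mice, and members are counted in the same cells, so these counts are not independent of each other. Both counts moved when single mice were left out. For AKI-CKD against Control the number higher was 22 without AKI-CKD 2 (median 0.08), 23 without Control 3 (median 0.11), 34 without AKI-CKD 1 (median 0.39) and 26 on library totals without TMM (median 0.17, against -0.06 over all genes). In the EGT comparison on library totals without TMM, which raised the differences of all genes by 0.23, 25 of 40 members were lower (median -0.11, against 0.22 over all genes). This step is the same for every gene, so the place of the members relative to all genes could not change. Without AKI-CKD + EGT 3 the number lower was 25, without AKI-CKD 2 it was 26 and without AKI-CKD 3 it was 28. On the TMM scale, 20 of 23 mitotic genes were lower (median -0.41), but 13 without AKI-CKD + EGT 3 (median -0.11), 14 without AKI-CKD 2 (median -0.15) and 15 on library totals. Of the S phase genes 10 of 12 were lower, 9 without AKI-CKD + EGT 3 (median -0.13) and 7 on library totals. In PT the direction of the mitotic genes with EGT rested on single mice, with 6 higher and 15 lower of 21 on all mice, 14 higher and 8 lower of 22 without AKI-CKD + EGT 3, and 12 higher and 9 lower without AKI-CKD 2.

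Ccnd1 was the most abundant member, with 151685 UMIs, and its groups overlapped: 193, 171 and 225 CPM in Control PT, 156, 230 and 227 in AKI-CKD kidneys and 137, 293 and 178 in AKI-CKD + EGT, with fitted differences of 0.06 ± 0.26 and -0.01 ± 0.26. Stmn1 was at 45.1, 63.9 and 56.7, then 61.4, 81.9 and 78.2, then 76.0, 64.6 and 43.1 CPM. Its first 2 groups overlapped through Control 2, at 63.9, and AKI-CKD 1, at 61.4 (0.42 ± 0.21, edgeR adjusted p = 0.498). Hmgb2 was at 70.6, 49.7 and 38.8, then 33.7, 59.9 and 52.2, then 43.4, 62.8 and 36.7 CPM. The cyclin E genes Ccne1 and Ccne2, which start replication, had 106 and 870 UMIs in all.

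Fewer members could be fitted outside PT: 9 in LOH, 18 in DCT, 10 in endothelial cells, 7 in macrophages and 4 in T cells. Of these 0 were called in AKI-CKD against Control, where 0.0191%, 0%, 0%, 0% and 0.0427% of all genes were, and 0 in the EGT comparison, where 0.486%, 0%, 0.00961%, 0% and 0% were. In LOH, Tyms was the 1 member of 9 with AKI-CKD all above Control (8.59% of all LOH genes were), at 22.1, 26.0 and 24.4 CPM against 17.9, 17.6 and 11.7, and EGT mice, at 20.3, 18.6 and 16, lay all below AKI-CKD mice, again 1 of 9 members beside 9.02% of all genes (0.61 ± 0.23 and -0.45 ± 0.23, edgeR adjusted p = 0.35 and 0.37). In DCT, Mcm2 and Rrm1, the large subunit of ribonucleotide reductase, 2 of 18 members beside 8.74% of all genes, had AKI-CKD all above Control (6.97 to 9.37 against 5.43 to 5.86 CPM for Rrm1), with adjusted p of 0.584 and 0.594 from edgeR.

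At an unadjusted p under 0.05 in the EGT comparison there were 2 of 18 members in DCT (13.9% of all genes), 1 of 10 in endothelial cells (10.1%) and 1 of 7 in macrophages (9.36%), shares near those of all genes, and 0 in LOH and T cells. In macrophages Stmn1 was at 59.4, 73.2 and 127 CPM in AKI-CKD kidneys and 44.4, 56.7 and 29.9 in AKI-CKD + EGT, all below (1 of 7 members, 6.91% of all genes), with Control at 43.9, 58.6 and 82.1 (-1.03 ± 0.32, edgeR adjusted p = 0.426). In endothelial cells Ccnd1 was at 268, 301 and 220 CPM against 167, 235 and 187, which overlap (-0.42 ± 0.18, adjusted p = 0.47). In DCT, Mki67 rested on 88 UMIs, at 1.99, 9.59 and 0.639 CPM in Control, 0.332, 4.25 and 9.37 in AKI-CKD kidneys and 1.81, 0.238 and 0.381 in AKI-CKD + EGT (-2.51 ± 1.11, adjusted p = 0.346). Its 3 highest values came from Control 2, AKI-CKD 3 and AKI-CKD 2, and for the replication factor Gins2, also in DCT, the EGT difference was -0.99 ± 0.44 (adjusted p = 0.346). In T cells the member with the lowest p was Stmn1, at 0.64 ± 0.41 with EGT (edgeR adjusted p = 0.54).

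Set against each other by mouse, S phase RNA varied less than mitotic RNA. Summed over the 12 genes, S phase RNA in PT was 59.8, 68.0 and 61.8 CPM in Control, 68.4, 78.6 and 78.8 in AKI-CKD kidneys and 81.0, 66.9 and 54.4 in AKI-CKD + EGT. AKI-CKD mice were all above Control mice, by a narrow margin between Control 2 and AKI-CKD 1, and the EGT mice covered the whole range. Mitotic RNA was 31.3, 33.2 and 21.2, then 18.3, 37.9 and 33.1, then 33.9, 26.6 and 13.8 CPM, with complete overlap. The ratio of S phase to mitotic RNA in PT was 2.29 ± 0.55 in Control, 2.73 ± 0.88 in AKI-CKD kidneys and 2.95 ± 0.86 in AKI-CKD + EGT (SD, n = 3), and over all kept cells 2.16 ± 0.50, 2.57 ± 0.72 and 2.76 ± 0.43. In both, the steps from Control to AKI-CKD and from AKI-CKD to AKI-CKD + EGT were within 1 SD. From Control to AKI-CKD + EGT, a pair not compared here, the gap in both was larger than the Control SD. In LOH, S phase sums of AKI-CKD mice were also all above Control mice (72.6 to 90.9 against 64.1 to 69.0 CPM). The LOH ratio was 2.77 ± 1.37, 5.33 ± 2.78 and 3.54 ± 1.16 in the 3 groups, on 460 mitotic UMIs. Its first step, 0.92 in log2, passed the pooled SD of 0.75, but the groups overlapped. These sums are described without a test, and 3 mice against 3 could not go below p = 0.1 in an exact 2-sided permutation test.

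**Figure D3:**
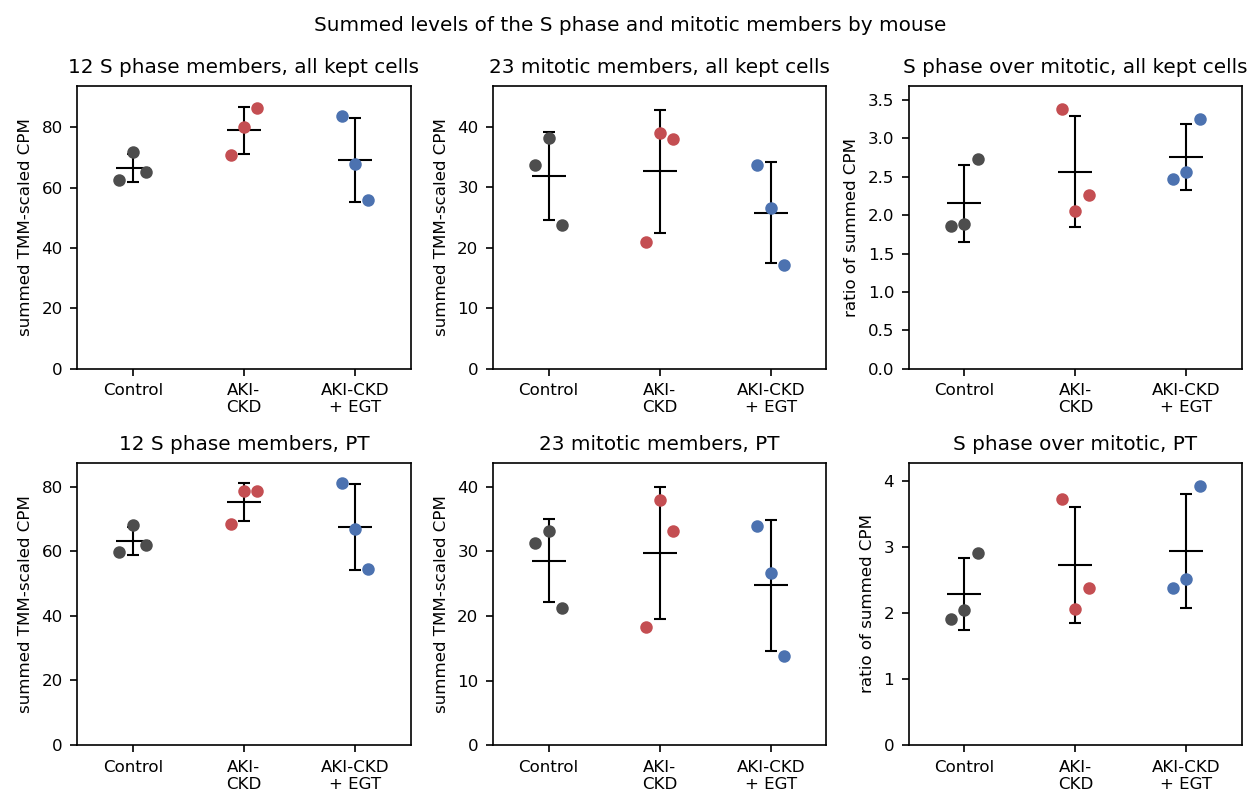
Summed expression of the 12 S phase and the 23 mitotic genes, in TMM-scaled CPM, and the ratio of the sums, in all kept cells and in PT cells, with 1 point per mouse and the mean ± SD of 3 mice. S phase sums in PT are 68.4 to 78.8 CPM in AKI-CKD against 59.8 to 68.0 CPM in Control, while the mitotic sums and the ratios overlap in all groups.

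The RNA of single members was also followed over cells. Each cell was thinned to 1000 UMIs, and a cell with UMIs of at least 3 of the 23 mitotic genes was counted as mitotic. The name stands for this rule alone. The list holds G2 genes too, and such cells also carried S phase RNA (below), so the rule does not place a cell in mitosis. There were 313 such cells of 196925 (0.159%, 95% exact binomial interval 0.142% to 0.178%, which here and elsewhere covers counting error only), holding 0.215% of all UMIs. Of the rest, 193544 had none of the 23, 2879 had 1 and 189 had 2, and the richest cell had 10. Scored with the gene itself left out, these cells held a median of 34.5% of a mitotic gene's UMIs, from 12.4% for Nusap1 and 13.8% for the kinetochore motor Cenpe to 45.5% for Mki67 and 50.3% for Ube2c, the ubiquitin enzyme of the anaphase-promoting complex. The S phase genes had a median of 4.00%, from 2.27% for Mcm2 to 34.3% for Rrm2, the small subunit of ribonucleotide reductase, which stood alone at that end of the list. Ccnd1 had 0.269% of its UMIs there, close to the 0.215% of all UMIs, and was found in 34.8% of all cells. Since these cells were picked by mitotic genes, the shares were also taken, after the first were seen, in cells picked by at least 3 S phase genes, again with the gene itself left out. There the median was 6.08% for mitotic genes (1.92% to 13.6%) and 1.89% for S phase genes (0.756% for Tyms to 10.1% for Rrm2), beside 0.0776% of all UMIs. The mitotic median was the higher of the pair under both rules, but the sets of cells differed. Under the second rule a mitotic gene was scored in 111 cells, to which the 0.0776% belongs, and an S phase gene in 76 to 103. These shares are a description with no test.

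**Figure D4:**
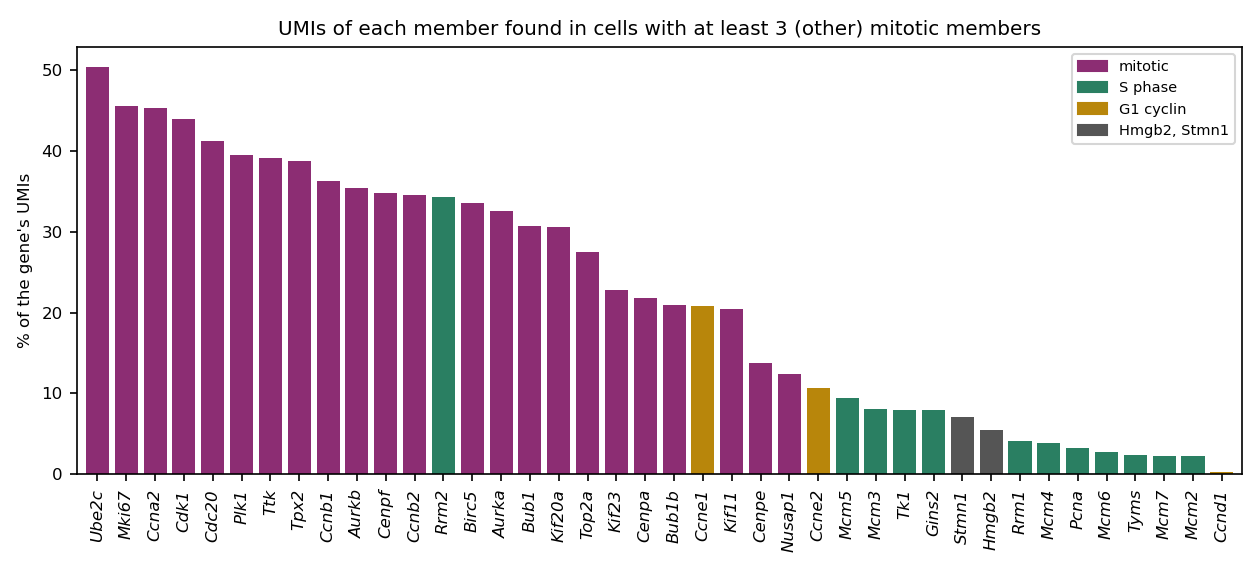
Share, in percent, of each of the 40 genes' UMIs that lay in cells with UMIs of at least 3 other mitotic genes, coloured by list. Mitotic genes lie between 12.4% and 50.3%, and S phase genes between 2.27% and 34.3% with Rrm2 at the top.

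Cells with at least 3 of the 12 S phase genes numbered 111 (0.0564%) after thinning, while on unthinned counts the order was the reverse, with 1118 S phase and 669 mitotic cells (0.568% and 0.340%). After thinning 36 cells met both rules, 11.5% of the mitotic and 32.4% of the S phase cells. Among cell types, the mitotic share was 0.147% in PT (238 of 161818 cells), 0.245% in DCT (30 of 12220), 0.0805% in LOH (6 of 7454), 0.342% in macrophages (9 of 2634) and 0.630% in T cells (6 of 953). No mitotic cell was found among 1748 intercalated, 742 B or 612 stromal cells, which by the limit of 3 counts allows shares of up to 0.172%, 0.404% and 0.490% (upper bounds of the exact binomial interval 0.211%, 0.496% and 0.601%). These limits are for cells that meet the rule after thinning, and unthinned counts gave 3, 1 and 2 such cells. In podocytes, taken as the type that should lack these genes, the share was 0.244% (2 of 820, interval 0.0296% to 0.878%). Their median was 2447.5 UMIs per cell against 2826 in PT. The PT share was not above this background, which rests on 2 cells, 1 each in AKI-CKD 1 and AKI-CKD 3. So wide an interval cannot show whether PT lay above it, and the PT share is read as a description of where the RNA lay. On unthinned counts the shares were 2.20% in podocytes and 0.307% in PT. Clustering with the cell cycle genes among the variable genes set apart 349 cells named PT, led by Mki67, Lockd and Top2a. Whether background RNA has a part in them was not tested. Within PT of the main clustering the mitotic share was highest in the cluster led by Cxcl10, Gdf15 and Spp2 (42 of 9695, 0.433%). Next was that led by Spp2, Car3 and Gatm (74 of 24021, 0.308%), and the others lay between 0.0373% and 0.178%. Of the 313 cells, 5 were among the 11816 with the highest doublet scores, which are the top 6% of each mouse. The scoring called almost no doublets, so this count is a description, and the part of doublets was not tested.

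By mouse, the mitotic share of PT cells was 0.145%, 0.142% and 0.112% in Control, 0.0582%, 0.213% and 0.185% in AKI-CKD kidneys and 0.303%, 0.107% and 0.0730% in AKI-CKD + EGT, from 7 to 44 cells per mouse. The means, 0.133 ± 0.018%, 0.152 ± 0.083% and 0.161 ± 0.124%, were closer than the mice of either cisplatin group. In DCT they were 0.431 ± 0.367%, 0.311 ± 0.291% and 0.0995 ± 0.0892%, also within their spread.

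Mitotic PT cells were compared with the other PT cells of the same mouse for genes that had not been used to pick them (77 genes, exact 2-sided sign-flip test over 9 mice, smallest possible p 0.00391, adjusted over the 77). At an adjusted p under 0.05, 52 of the 77 genes were higher and 5 lower. Only these 77 genes were compared. The share of all genes that differ in mitotic PT cells is therefore not known, and the counts cannot be set against it. For 27 of the 77 fewer than 3 UMIs would be expected in these cells at the level of the other PT cells, among them 19 of the 52 and 4 of the 5 (Cdkn2a, Cdkn2b, Ccnd2 and Orc1, each with 0 UMIs in mitotic PT cells, so that no direction is read from them), and the other was Cdk6. All 12 S phase genes were higher, by 11.4- to 258-fold with a median of 17.9. Rrm2 was at 224 ± 63 CPM in mitotic and 0.868 ± 0.218 in other PT cells, Tk1, thymidine kinase, was 42.2-fold higher, Pcna 15.9-fold and Tyms 11.8-fold, each in 9 of 9 mice (exact p = 0.00391, adjusted 0.0111). Of the 12, 5 had such a low expected count. Stmn1 was at 1964 ± 469 against 58.7 ± 8.2 CPM and Hmgb2 was 28.7-fold higher, whereas Ccnd1 was at 262 ± 96 against 201 ± 50 CPM, 1.30-fold and higher in 8 of 9 mice (exact adjusted p = 0.0295). The 16 PT marker genes summed to 13361 CPM in mitotic and 22898 in other PT cells and were lower in 9 of 9 mice. Of the marker lists of other cell types, that of the thin limb was higher, at 74.1 against 27.3 CPM (2.72-fold, in 7 of 9 mice, exact p = 0.0273, unadjusted like the next). Intercalated markers (6.03 against 19.0 CPM, exact p = 0.0156), stromal markers (0.627 against 5.70, exact p = 0.0156) and erythroid markers (17.4 against 59.8, exact p = 0.0352) were lower, and the part of these lists in the differences between mitotic and other PT cells was not tested.

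Of 60 other cell cycle genes (inhibitors, Rb and E2F, MuvB, further cyclins and kinases, licensing, checkpoint and p53 pathway genes), the called ones were 2 genes that restrain growth, Cdkn1a and Phlda3. In PT, 2 of the 55 that could be fitted rose in AKI-CKD against Control and 0 fell, where 0.0389% of all PT genes (7 of 17975) were called, and in the EGT comparison 0 passed, as for all PT genes. The lists were chosen with earlier results of these data known. Here and below, shares over all genes are therefore given for scale and are no test of a list. Cdkn1a, the inhibitor of cyclin-dependent kinases, was at 9.86, 9.51 and 4.09 CPM in Control, 48.4, 128 and 91.5 in AKI-CKD kidneys and 43.9, 16.4 and 27.8 in AKI-CKD + EGT. The 3 groups did not overlap, and the rise in AKI-CKD was 3.51 ± 0.47 (edgeR adjusted p = 0.0364), while the EGT difference of -1.60 ± 0.44 did not pass (adjusted p = 0.232). Phlda3, a p53 target that restrains Akt, was at 2.43, 1.47 and 1.34 CPM in Control, 8.90, 19.8 and 19.5 in AKI-CKD kidneys and 4.85, 3.08 and 4.37 in AKI-CKD + EGT, and rose by 3.20 ± 0.34 (adjusted p = 0.0105). It also rose in LOH (3.18 ± 0.48, adjusted p = 0.0277, where 0.0191% of all genes were called) and over all kept cells (2.81 ± 0.30, adjusted p = 0.0186), where it was the sole call among 59 genes beside 0.0199% of all genes. In LOH, Cdkn1a fell with EGT, from 47.8, 136 and 79.6 to 37.0, 28.6 and 31.5 CPM (-1.49 ± 0.29, adjusted p = 0.0345), where 0.486% of all LOH genes were called. All 9 p53 pathway genes, which include Trp53 itself and its inhibitor Mdm2, had positive differences in PT in AKI-CKD against Control. The lowest was 0.007 and the median 0.52, beside 8651 of 17975 genes and a median of -0.01 over all genes. With EGT 7 of the 9 had negative differences (median -0.33, beside 9219 of 17975 genes and a median of -0.01), in comparisons that share the AKI-CKD mice. The Rb and E2F genes (median 0.05 and 0.01) and the MuvB, B-Myb and FoxM1 genes (-0.10 and -0.08) had no call in PT. The calls were lost in several smaller fits whose differences are given beside them. Fitted on the 6 mice of the comparison alone, Cdkn1a and Phlda3 in PT did not pass (3.49 and 3.18, edgeR adjusted p = 0.0583 and 0.0562). Cdkn1a in PT did not pass without any single mouse other than AKI-CKD 1 or AKI-CKD + EGT 1 (0.0516 to 0.202, with differences of 3.17 to 3.71), and Phlda3 in PT did not pass without Control 2 (0.105) or Control 3 (0.0759), with differences of 3.10 and 3.05. In LOH the Phlda3 call was lost without AKI-CKD 2 or 3 or any Control mouse (0.0539 to 0.127, differences 2.90 to 3.77) and the Cdkn1a call without AKI-CKD 2 or 3, AKI-CKD + EGT 2 or 3 or Control 2 (0.0555 to 0.228, differences -1.02, without AKI-CKD 2, to -1.56). Over all kept cells Phlda3 was lost without AKI-CKD 2 or 3 or Control 2 or 3 (0.0687 to 0.187), with differences of 2.65 to 2.81.

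Cdkn1a RNA was also found in the cells counted as mitotic by the rule above. After thinning, it was detected in 3 of 84 mitotic PT cells of Control mice, 25 of 85 of AKI-CKD mice and 12 of 69 of AKI-CKD + EGT mice. By mouse the share was 3.70%, 3.03% and 4.17% in Control, 16.7%, 50% and 15.4% in AKI-CKD kidneys and 20.5%, 11.1% and 14.3% in AKI-CKD + EGT, and all cisplatin-treated mice were above all Control mice. Each Control mouse and AKI-CKD + EGT 3 had a single positive mitotic cell, so the direction in 4 of the 9 mice rests on 1 cell each. Among S phase PT cells it was detected in 1 of 23 in Control (0 in Control 1 and 3), 11 of 35 in AKI-CKD kidneys and 6 of 26 in AKI-CKD + EGT (0 in AKI-CKD + EGT 3). In the other PT cells the share with Cdkn1a was 0.932%, 0.758% and 0.332%, then 3.28%, 6.23% and 5.20%, then 3.09%, 1.38% and 2.61%. In each of the 9 mice the mitotic cells had the higher share, by 12.8 ± 12.7 percentage points (SD; exact sign-flip p = 0.00391, the smallest possible), and by 12.4 ± 12.4 when the other cells were weighted to the same PT clusters. Only chosen genes were compared between mitotic and other PT cells, so the following counts have no share over all genes beside them. Of the other cell cycle genes compared, those higher in mitotic PT cells were 3 of 7 inhibitors, 8 of 13 Rb and E2F genes, 5 of 7 MuvB, B-Myb and FoxM1 genes, 3 of 7 further cyclins and kinases, 6 of 8 licensing, 7 of 9 checkpoint and 4 of 9 p53 pathway genes. Among them, Cdkn2c and Cdkn2d, INK4 inhibitors of the cyclin D kinases, were 9.47- and 21.8-fold higher in mitotic PT cells, Foxm1 202-fold (0.225 CPM in other PT cells), and Cdk6 was lower, at 10.8 ± 12.5 against 25.6 ± 5.9 CPM (0.42-fold, higher in 1 of 9 mice, exact adjusted p = 0.0150). Doublets and free RNA were not tested as the source of RNA in single cells, and the scores and the podocyte share above are descriptions.

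**Figure D5:**
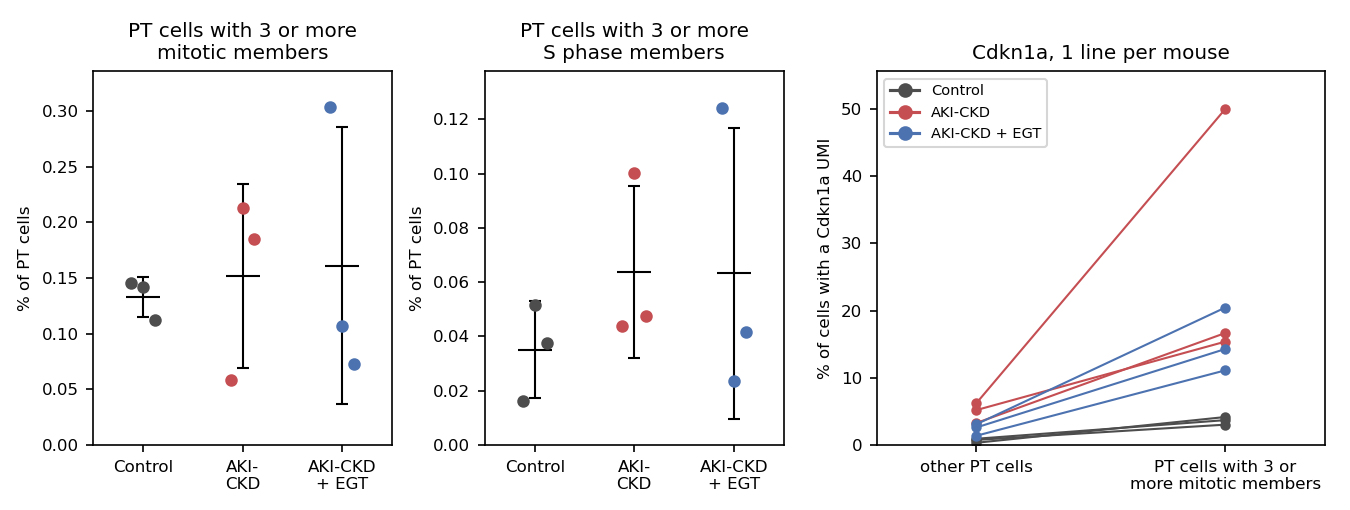
Share of PT cells, in percent, with UMIs of at least 3 mitotic or at least 3 S phase genes after thinning to 1000 UMIs, by mouse with mean ± SD, and share of cells with Cdkn1a among other and mitotic PT cells, 1 line per mouse. The mitotic shares overlap between groups (0.0582% to 0.303%), and all 9 Cdkn1a lines go up from other to mitotic cells.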

How the data were processed

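The authors deposited, for each of the 9 kidneys, a table of UMI counts per gene and cell barcode. Per the file headers the counts were made with PISA 1.0, and the submitters' processing notes name the GRCm39 build. The aligner is not given in the sources used here. RefSeq promoter windows are of GRCm38.p6 and were used for sequence only. The labels and the study's methods give 3 separate mice per group. The members and lists were chosen with earlier results of these data known.

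Cells with at least 1000 UMIs, 500 genes and at most 15% mitochondrial UMIs were kept. The study states fewer cells after the same limits. Totals per mouse were 64225484 to 97584966 UMIs in kept cells. Of 98290 barcode names, 62337 occurred in 2 or more libraries and 1 in all 9, and cells were keyed by library. Cells were clustered with own code (2000 variable genes, 30 components, an own implementation of Harmony over mice). Neighbours (20 per cell) came from scikit-learn 1.9.0 and Leiden clusters (resolution 1.1) from igraph 0.11.9. The variable genes left out cell cycle, mitochondrial, ribosomal protein, respiratory chain and haemoglobin genes. Clusters were named from marker lists, so names may differ from the study's. Scrublet scores (scanpy 1.11.5) called almost no doublets, so none were removed, and removing the highest 6% of scores was an alternative.

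Counts were summed per mouse and population (at least 30 cells) and fitted with edgeR 4.0.16 (TMM, its default expression filter, quasi-likelihood test, 9 mice in 1 model, Benjamini-Hochberg over all genes of a population). DESeq2 1.42.0 was an alternative. Cells were thinned to 1000 UMIs without replacement before genes per cell were counted, and values within cells were compared over 9 mice by exact sign-flip tests (scipy 1.17.1). The fitting scripts were tested on simulated counts. Values by mouse are given for Mki67, Top2a, Cdk1, Ccnb1, Pcna, Mcm6, Ccnd1 and Stmn1, for the 3 mitotic and 3 S phase genes with most UMIs, for called members, and for the 2 largest differences each way in all kept cells and PT among members with at least 100 UMIs; Mcm2, Mcm4, Hmgb2 and members with low unadjusted p were added after their values were seen. Alternatives were other normalizations, library sizes, filters, cell limits and clusterings, a replicate block, and leaving out each mouse.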

Additional observations from a re-analysis of the deposited data

How the results depend on the processing

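The 40 members had 0 calls in every population by edgeR, by DESeq2, with DESeq2's size factors and with the replicate block. Without a filter on low counts 2 were called in DCT (Mki67, -2.50, edgeR adjusted p = 0.00243, and Ccnb1) and 1 in macrophages (Stmn1, -1.05, adjusted p = 0.0193), each lower with EGT. The summed S phase level in the EGT comparison moved on plain totals from -0.21 to 0.025 over all kept cells and from -0.17 to 0.046 in PT. All genes moved by 0.23 and 0.22, a step that the scaling sets for every gene alike. A change relative to all genes could therefore not show in this alternative.

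Calls among the other 60 cell cycle genes were less steady. For AKI-CKD against Control the counts over all kept cells, in PT and in LOH were 1, 2 and 1, without the filter 2, 4 and 2 (DCT 3, endothelial cells 1), on the 6 mice compared 0, 0 and 2, and with the replicate block 0, 0 and 0. DESeq2 gave 4 and 4 for the first 2 populations. LOH gave 2 on library sizes without mitochondrial, ribosomal protein and Malat1 counts and without the highest doublet scores, and 0 with cell cycle genes among the variable genes or without Harmony. For the EGT comparison the counts 0, 0 and 1 became 1, 3 and 3 without the filter (DCT 4, endothelial cells 3), 2 and 3 by DESeq2 in the first 2, and in LOH 0 with the block, without the mitochondrial limit or with cell cycle genes among the variable genes, and 4 without Harmony. Leaving out 1 mouse gave 0 to 1, 0 to 2 and 0 to 2 for AKI-CKD against Control and 0 to 1 in PT and LOH for EGT, with 0 to 1 and 0 to 2 in DCT. The cause of these changes was not tested.

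The deviations of same-numbered mice from their group means had correlations of -0.458 to 0.373, with no common sign. Mice with different numbers were not correlated for reference, so this cannot settle whether replicate numbers pair the mice. With the block, Cdkn1a in PT had adjusted p = 0.166 at a difference of 3.58 and Phlda3 0.0745 at 3.21. Groups of 3 mice and mitotic genes with 69 to 3399 UMIs limit what could be detected: standard errors of mitotic genes in PT reached 0.73 for Cdk1.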
